A study of Mus musculus with 30 samples.

Results

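TNF was compared with no ligand in cultured mouse colonocytes, which was 6 of the 30 mRNA libraries of the series. The members were chosen by table, as the 3 libraries of the untreated cultures and the 3 of the cultures given TNF, with cultures of the same number taken as pairs. Both groups were labelled IMCfl/fl Smad4+ colonocytes, so the untreated cultures carried the same genotype label as the treated ones. The labels give neither the dose nor the length of the TNF treatment. They also do not say what the culture number marks or whether the cells were 1 clone, so no p-value reaches beyond these cultures. The other libraries of the series came from colon epithelium with and without Smad4, from colonocytes given TGFB1 with BMP2, and from colonoids, and the series concerns how Smad4 signalling modulates the induction of the chemokine Ccl20. The colonoid libraries given vehicle or TNF at 100 ng/mL (3 lines, 42, 43 and 46, in each group) are used here in 1 comparison, to show where the colonocyte response differed.

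Tumour necrosis factor binds Tnfrsf1a and Tnfrsf1b at the cell surface. Its main receptor assembles adaptors and ubiquitin ligases that activate the IkB kinases, which release NF-kB dimers into the nucleus, and the same complex can switch to caspase-dependent death. NF-kB then induces chemokines, adhesion molecules and its own inhibitors, which end the signal, and in many cells it also induces interferon regulatory factors and through them interferon-stimulated genes. In the inflamed colon, TNF is a leading therapeutic target.

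The colonocyte label was checked against cell type markers. Of 18 epithelial markers, 5 were listed in the deposited table (Cdh1, Krt7, Krt8, Krt18 and Krt19), and their summed level was 44.8 to 58.5 CPM (counts scaled to a common library size) over the 6 libraries. Epcam, Vil1, Cdx1, Cdx2 and Krt20 were not listed. Of 19 mesenchymal markers 17 were listed, and their summed level was 15506 to 16223 CPM, with Vim at 3057 to 3217 CPM and Fn1 at 4569 to 4874 CPM in the untreated libraries. Cdh1, the junction protein of epithelia, stood at 0.966, 1.42 and 1.05 CPM in the untreated libraries, whereas Cdh2, its mesenchymal relative, stood at 370.3, 371 and 399 CPM. The markers therefore go against an epithelial reading of the label, and the cells are called colonocytes here only because the label does. Leukocyte markers summed to 38.2 to 50.8 CPM, nearly all of it Cd68, and Ptprc was not listed; of 6 endothelial markers only Kdr was listed, at 2.93 to 5.10 CPM. Smad4 stood at 126, 120.3 and 117 CPM without and 120.3, 120.3 and 124 CPM with TNF, a log2 difference of 0.01 (paired fit with limma, adjusted p = 0.931). Libraries held 21.6 to 39.5 M reads over listed genes, the shallowest being the pair numbered 3, which also stood apart from the other pairs in the correlations between libraries.

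The bases just before the start of 6 genes are shown because the results turn on their response: the genes of a chemokine (Ccl20), of an interferon-inducible chemokine (Cxcl10), of 2 NF-kB inhibitors (Nfkbia and Nfkbie), of a guanylate-binding protein (Gbp5) and of an antiviral enzyme (Rsad2). Each line holds the 250 bases before the RefSeq start (GRCm38.p6), read 5′ to 3′ on the gene's strand, and capitals mark matches to the NF-kB consensus or to the core of the interferon-stimulated response element (ISRE, GAAA, any 2 bases, then GAAA), searched on both strands.
Ccl20 (chr1:83116516-83116765, plus strand): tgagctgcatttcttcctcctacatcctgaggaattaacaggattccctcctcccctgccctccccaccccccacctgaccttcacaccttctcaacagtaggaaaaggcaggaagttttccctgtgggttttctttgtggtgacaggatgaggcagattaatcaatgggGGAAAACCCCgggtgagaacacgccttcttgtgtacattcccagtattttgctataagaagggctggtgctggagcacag
Cxcl10 (chr5:92348890-92349139, minus strand): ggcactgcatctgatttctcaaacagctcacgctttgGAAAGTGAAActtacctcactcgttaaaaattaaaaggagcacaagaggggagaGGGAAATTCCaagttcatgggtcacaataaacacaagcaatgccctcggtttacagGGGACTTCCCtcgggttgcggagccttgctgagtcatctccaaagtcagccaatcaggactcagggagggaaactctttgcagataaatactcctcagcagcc
Nfkbia (chr12:55492648-55492897, minus strand): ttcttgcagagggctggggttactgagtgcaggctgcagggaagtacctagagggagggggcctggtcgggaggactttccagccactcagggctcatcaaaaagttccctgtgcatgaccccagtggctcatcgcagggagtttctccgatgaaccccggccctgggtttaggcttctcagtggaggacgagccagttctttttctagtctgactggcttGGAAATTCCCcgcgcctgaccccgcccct
Nfkbie (chr17:45555450-45555699, plus strand): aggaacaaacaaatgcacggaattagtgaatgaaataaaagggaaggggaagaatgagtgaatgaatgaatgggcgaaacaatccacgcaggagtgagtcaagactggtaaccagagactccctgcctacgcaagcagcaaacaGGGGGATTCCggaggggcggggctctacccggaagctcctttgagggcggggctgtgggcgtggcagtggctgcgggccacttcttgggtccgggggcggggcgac
Gbp5 (chr3:142496684-142496933, plus strand): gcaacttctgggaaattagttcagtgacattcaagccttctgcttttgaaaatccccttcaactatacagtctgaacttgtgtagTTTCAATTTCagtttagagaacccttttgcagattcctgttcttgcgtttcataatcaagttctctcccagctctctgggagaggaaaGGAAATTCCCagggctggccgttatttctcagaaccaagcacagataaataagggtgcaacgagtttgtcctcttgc
Rsad2 (chr12:26456453-26456702, minus strand): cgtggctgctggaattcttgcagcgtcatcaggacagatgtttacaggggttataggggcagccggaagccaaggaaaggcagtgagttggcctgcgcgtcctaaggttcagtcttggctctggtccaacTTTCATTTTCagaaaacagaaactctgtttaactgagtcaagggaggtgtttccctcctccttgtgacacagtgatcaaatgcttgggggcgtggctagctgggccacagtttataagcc

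The NF-kB match of Ccl20 lay 80 to 71 bases before the start, that of Nfkbia 29 to 20 and that of Nfkbie 106 to 97. Cxcl10 held 2 NF-kB matches, at 159 to 150 and 103 to 94, and an ISRE core at 213 to 204. In Gbp5 an NF-kB match stood at 77 to 68 and an ISRE core at 165 to 156, and Rsad2 held an ISRE core alone, at 120 to 111. The NF-kB consensus was present in 4.46% of the 27025 genes with a promoter entry and in 5.50% of the 9305 tested genes with one, and the ISRE core in 3.46% and 3.16%. Among the NF-kB feedback inhibitors 7 of 11 genes with an entry held the NF-kB consensus, against 2 of 21 cell cycle genes and 0 of 11 of the genes with the largest falls. The AP-1 motif (TGANTCA) was present in 7.82% of all entries, in 5.33% of tested genes and in 2 of the 11 feedback inhibitors. The same share is void for the genes that rose, for the genes that fell and for the interferon-stimulated genes, because under 80% of each set had an entry. A match is a description of these letters and does not show that a factor binds there.

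TNF raised a small number of genes by a large factor and moved many others slightly. Of 11586 genes tested, 2356 passed the paired test (20.3%), 1337 higher (11.5%) and 1019 lower (8.8%), by limma on log2(CPM + 1) with Benjamini-Hochberg adjustment at 0.05. Rises were larger than falls: 104 called genes were at least 2-fold higher and 43 at least 3-fold, and no called gene was 2-fold lower. The median log2 change was 0.23 among the genes called higher and -0.22 among those called lower, and log2 changes of called genes ran from -0.88 to 4.01. The 3 pairs moved the same way for 2261 of the 2356 called genes, and the 2 groups of libraries overlapped for 649 of them. Called or not, 2855 tested genes rose in 3 of 3 pairs (24.6%) and 2784 fell in 3 of 3 (24%). The paired test uses these same differences, so agreement among called genes is largely set by the selection. Over all tested genes, called or not, the TNF libraries all lay above the controls for 1505 (13%) and all below for 1231 (10.6%). Without the pairing, 728 genes passed (6.28%), 534 higher (4.61%) and 194 lower (1.67%), and all 728 were among the paired calls. With each library scaled to the total of its listed values, the split was 1016 higher and 1615 lower. Leaving out pair 1 or pair 2 gave 1326 and 1314 calls, and a fit with no mean-variance trend, chosen after seeing the data, gave 984. With 2 residual degrees of freedom the paired fit takes a gene's error almost wholly from other genes of its level. Its p-values are therefore far smaller than the 3 pairs of 1 gene could give. The value without the pairing is printed beside some of them only.

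**Figure D1:**
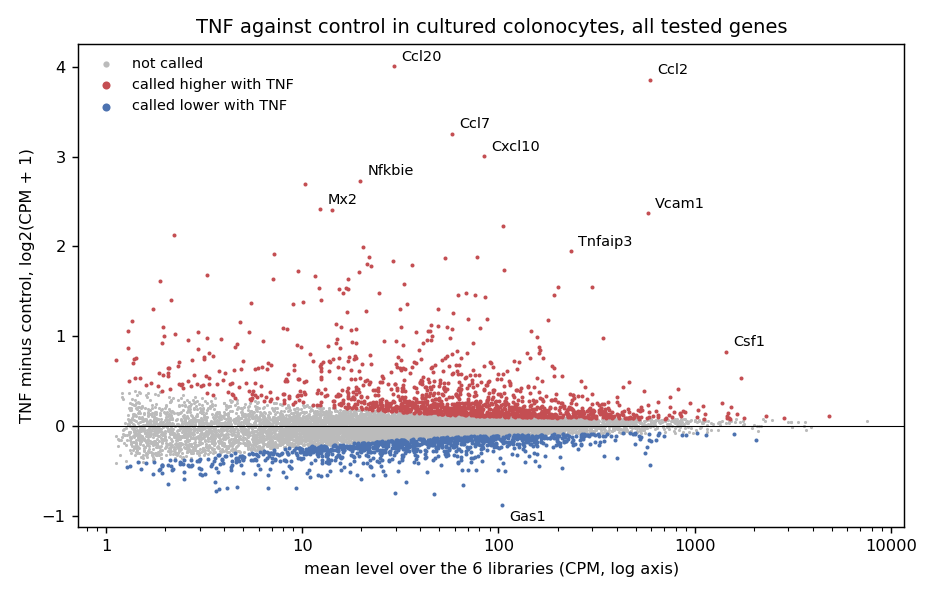
Each point is 1 of the 11586 tested genes, with its mean level over the 6 colonocyte libraries in CPM on a log axis against its TNF minus control difference in log2(CPM + 1); coloured points passed the paired test. The rises reach 4.01 and the falls stop at -0.88.

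Both receptors were present without ligand, and 1 of them rose. Tnfrsf1a, the main TNF receptor, stood at 182, 187 and 166 CPM in the controls and 173, 173 and 157 CPM with TNF, a difference of -0.09 that missed the threshold (log2 scale, limma, adjusted p = 0.0664). Tnfrsf1b, the second receptor, rose from 116, 116 and 100.0 to 154, 165 and 129.6 CPM (log2 change 0.43). Ranked by control level per length of exon, Tnfrsf1a stood at percentile 94.3 of the tested genes and Tnfrsf1b at 84. The genes of the ligands TNF and lymphotoxin (Tnf, Lta and Ltb) were not listed. Of 21 tested members of the receptor complex, 8 rose and 0 fell (7 and 0 without the pairing), with a list median of 0.08 against -0.003 over all tested genes. Among all tested genes 11.5% were called higher and 8.8% lower (4.61% and 1.67% without the pairing). The largest of these rises was that of Birc3, an inhibitor of apoptosis that ubiquitinates proteins of the complex, from 9.61, 9.15 and 7.5 to 37.6, 38.3 and 29.2 CPM. All 3 TNF libraries stood far above the controls (log2 change 1.88, SE 0.07, adjusted p = 5.11e-65 paired and 3.25e-06 without the pairing, both by limma). Its relative Birc2 rose from 26.7, 26.7 and 29.9 to 50.1, 53.2 and 48.4 CPM. Rnf31, the catalytic subunit of the linear ubiquitin ligase, rose from 32.9, 32.6 and 32.8 to 46.3, 45.8 and 46.9 CPM. The adaptors Traf2 and Traf3 rose by 0.31 and 0.40 on the log2 scale, the caspase-8 inhibitor Cflar by 0.19 and the kinase Map3k14 by 0.22 (adjusted p = 0.0822 without the pairing by limma). Small differences were measured in the core of the complex, where Tradd, Ripk1, Fadd, Casp8 and the kinase Map3k7 had log2 differences of 0.03, 0.00, 0.06, 0.08 and 0.04 and none passed the test.

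All 5 NF-kB subunit genes rose. Relb, whose protein pairs with the Nfkb2 product in the alternative pathway, went from 17.9, 15.5 and 13.5 to 59.7, 62.5 and 47.7 CPM. Every TNF library held over 3 times the level of its own control (pair log2 changes 1.68, 1.95 and 1.74). Nfkb2 rose from 114, 106 and 106 to 261, 247 and 234 CPM, and Nfkb1, the precursor of p50, from 93.6, 89.3 and 86.7 to 147, 154 and 145 CPM. The groups did not overlap for either gene. Rela, the main activating subunit, stood highest of the 5 in the controls per length of exon (percentile 94.6, against 80.3 for Nfkb2, 49 for Nfkb1, 32.5 for Relb and 16.8 for Rel), and its rise was modest, from 224, 220.0 and 208 to 318, 314 and 288 CPM (log2 change 0.50). Rel rose by 0.35. Of the kinases, Ikbke, which phosphorylates interferon regulatory factors, rose from 43.4, 45.7 and 37.5 to 101, 96.2 and 94.7 CPM and its relative Tbk1 by 0.20 on the log2 scale, whereas the 3 subunits of the classical IkB kinase (Chuk, Ikbkb and Ikbkg) had differences of 0.06, 0.07 and -0.06 and did not pass. Of the 10 tested subunits and kinases 7 rose and 0 fell with or without the pairing, beside 11.5% higher and 8.8% lower among all tested genes.

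Genes whose proteins switch NF-kB off were among the largest rises, and 9 of 12 rose with 0 falls (7 and 0 without the pairing, list median 0.75). This count stands beside 11.5% higher and 8.8% lower among all tested genes. Nfkbia (chromosome 12, 55489410 to 55492647, minus strand), which encodes IkB-alpha, went from 37.2, 39.1 and 32.7 CPM to 179, 178 and 164 CPM with TNF. The 3 pairs were close to each other, at log2 changes of 2.24, 2.16 and 2.29 (SE 0.04, adjusted p = 2.72e-122 paired and 1.33e-08 without the pairing, by limma). Nfkbie (chromosome 17, 45555703 to 45563169, plus strand), which encodes IkB-epsilon, stood at 4.15, 4.75 and 4.3 CPM and at 38.3, 38 and 29.1 CPM, which was 7.99 times the control mean. Tnfaip3 (chromosome 10, 19000910 to 19015657, minus strand), the gene of the ubiquitin-editing enzyme A20, went from 93.4, 85.2 and 109 to 366, 361 and 384 CPM. Its TNF libraries were the highest of the list, and its pair changes were 1.96, 2.07 and 1.81. The A20-binding proteins differed: Tnip3 rose from 4.75, 5.57 and 4.67 to 19.7, 19.4 and 15.5 CPM, and Tnip1 rose by 0.81 on the log2 scale. Tnip2 stood at 13.2, 13 and 15 CPM without and at 12.8, 14.2 and 14.4 CPM with TNF, and its groups overlapped. Zc3h12a, a ribonuclease that degrades inflammatory mRNAs, rose by 0.93 and Nfkbib by 0.69. The nuclear IkB genes Nfkbid and Nfkbiz rose by 0.47 and 0.20 in the paired fit and lost the call without the pairing (adjusted p = 0.064 and 0.466 by limma). The deubiquitinase gene Cyld stood at 172, 181 and 176 CPM without and at 182, 179.7 and 173 CPM with TNF.

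The largest rise of all was that of a chemokine gene. Ccl20 (chromosome 1, 83116766 to 83119167, plus strand), the ligand of Ccr6, stood at 2.38, 3.18 and 2.06 CPM in the controls and at 60.1, 60.8 and 46.9 CPM with TNF. Even the lowest TNF library was above the highest control by more than 10 times, and the log2 change of 4.01 (SE 0.08, adjusted p = 5.8e-117 paired and 2.05e-08 without the pairing, by limma) was the largest of all tested genes. The monocyte chemokine genes Ccl2 and Ccl7 lie next to each other on chromosome 11 (82035571 to 82037453 and 82045712 to 82047525, plus strand) and their proteins act on Ccr2. Ccl2 went from 81.4, 77.3 and 68.9 to 1151, 1209.9 and 985 CPM, and Ccl7 from 10.2, 10.0 and 10.4 to 109, 110.0 and 100.4 CPM. Their pair changes spread by less than 0.2 on the log2 scale, at 3.80, 3.95 and 3.82 for Ccl2 and 3.28, 3.33 and 3.15 for Ccl7. Cxcl10 (chromosome 5, 92346638 to 92348889, minus strand), which draws Cxcr3-bearing T cells, went from 15.5, 17.6 and 20.4 to 158, 174 and 121 CPM, with a smaller change in pair 3 (3.26, 3.23 and 2.52), whose control was the highest and whose TNF library was the lowest. Of the transmembrane chemokines, Cx3cl1 rose from 2.56, 3.1 and 3.16 to 11.1, 12 and 10.6 CPM and Cxcl16 from 28.2, 29.2 and 28.5 to 60.3, 68.1 and 54.6 CPM. Ccl5 rose by 0.71 and Ccl9 by 0.56 (adjusted p = 0.0936 without the pairing by limma), and Ccl25 and Ccl27a had differences of -0.01 and 0.09. Cxcl12, the homeostatic ligand of Cxcr4, went the other way, from 13.8, 14.3 and 17.1 to 9.48, 8.27 and 12.1 CPM, and fell by 0.56 on the log2 scale with every TNF library below every control. In counts, 5 of 7 tested CC chemokines rose and 0 fell (4 and 0 without the pairing), and 3 of 5 CXC and CX3C chemokines rose and 1 fell (likewise without the pairing). The shares among all tested genes were 11.5% higher and 8.8% lower. The neutrophil chemokine genes Cxcl1, Cxcl2 and Cxcl5 were not listed.

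**Figure D2:**
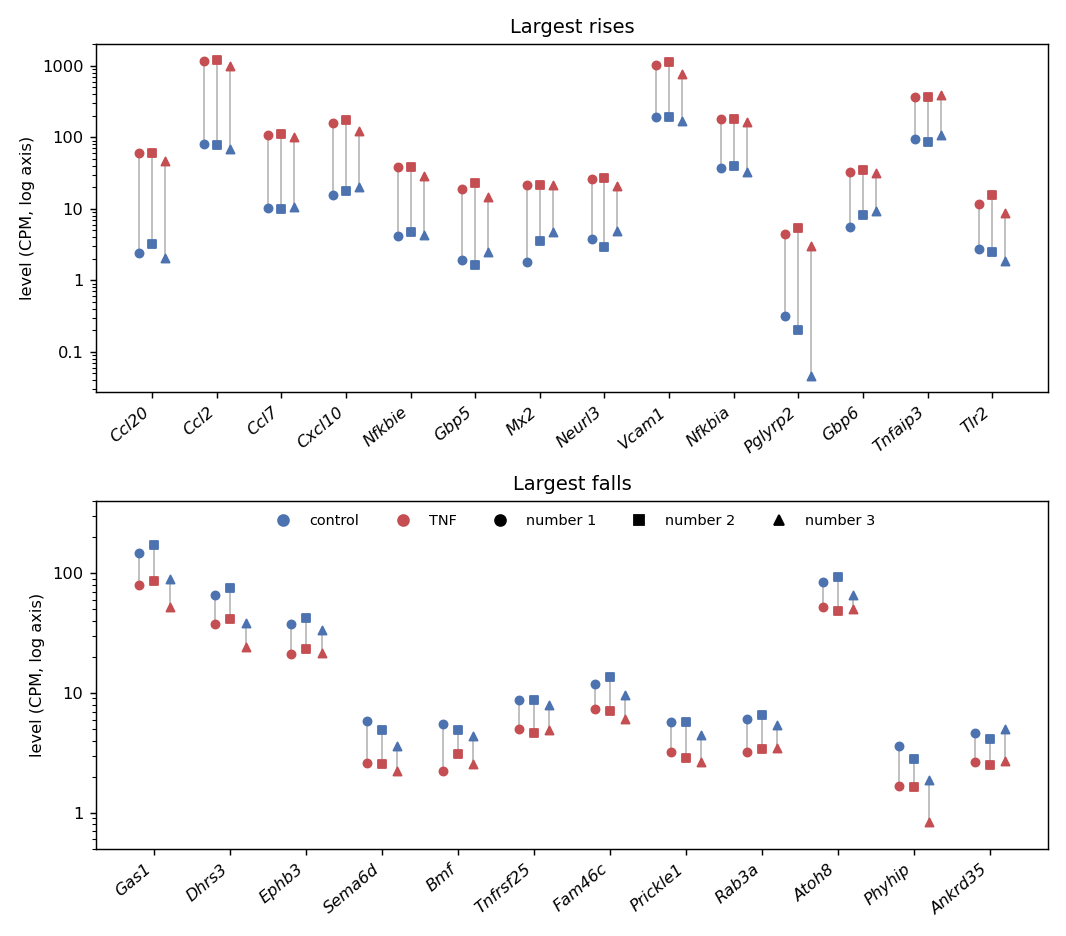
Level in each of the 6 libraries (CPM, log axes) of the 14 genes with the largest rises and the 12 with the largest falls among called genes that moved the same way in all pairs. Blue is control, red is TNF, the marker shape is the culture number and grey lines join a pair; only Dhrs3 has TNF and control libraries that overlap.

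All 6 tested adhesion molecules rose, with and without the pairing. Vcam1 (chromosome 3, 116109949 to 116129688, minus strand), which binds integrins of monocytes and lymphocytes, stood at 192, 194 and 171 CPM in the controls and at 1024, 1117 and 778 CPM with TNF. Pair 3 changed least (2.41, 2.52 and 2.18). Icam1, the ligand of leukocyte beta-2 integrins, rose from 7.83, 7.16 and 7.09 to 22.7, 26.8 and 20.2 CPM and Selp, which encodes P-selectin, from 9.01, 8.44 and 9.97 to 18.1, 19.1 and 16.3 CPM. Cd44, a receptor for hyaluronan, rose by 0.49 and Cd47 by 0.37 on the log2 scale. Of 11 tested cytokine and growth factor genes 5 rose and 2 fell (4 and 1 without the pairing), beside 11.5% and 8.8% of all tested genes. Csf1, the macrophage growth factor, stood at percentile 98.6 of the tested genes per length of exon in the controls, against 94.1 for Ccl2 and 16.8 for Ccl20, and rose from 1038, 993 and 1085 to 1837, 1828 and 1860.1 CPM. The groups did not overlap. Ereg, a ligand of the EGF receptor, rose from 112, 102 and 127 to 198, 204 and 227 CPM, and Tgfa, another such ligand, fell by 0.47, while Areg and Hbegf had differences of 0.26 and -0.04. Tslp, an alarmin, was low at 1.04, 0.796 and 1.1 CPM and rose to 2.63, 2.82 and 3.49 CPM. Its control mean was below 1 CPM, so it met the minimum mean of 1 CPM only through its TNF libraries. The alarmin Il33 fell by 0.31 in the paired fit, with overlapping groups and no call without the pairing (adjusted p = 0.45 by limma).

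Other members of the TNF superfamily included 4 of 16 called higher and 2 lower (4 and 1 without the pairing) and a median of 0.07. Among all tested genes 11.5% were called higher and 8.8% lower. Tnfsf18, the ligand of the costimulatory receptor GITR, rose from 7.34, 7.05 and 4.94 to 19.6, 19.9 and 16.3 CPM, and the death receptor gene Fas from 52.4, 46.9 and 51.5 to 91.4, 88.9 and 85.7 CPM. Both were higher in every TNF library than in every control. Tnfrsf25, a death-domain receptor, fell from 8.72, 8.67 and 8 to 5.03, 4.61 and 4.9 CPM (log2 pair falls of 0.69, 0.79 and 0.61). The lymphotoxin receptor gene Ltbr and Tnfrsf10b, the mouse receptor for TRAIL, had differences of -0.06 and 0.09 and did not pass.

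Genes of the interferon response rose almost throughout, although Ifnb1 was not listed. Of 18 tested genes of interferon signalling 14 rose and 1 fell (12 and 0 without the pairing), with a median of 0.40. The list of 38 interferon-stimulated genes had 37 higher and 0 lower (30 and 0), with a median of 0.76. Among all tested genes 11.5% were called higher and 8.8% lower. Among the transcription factors, Irf1 went from 49.8, 56.3 and 53.3 to 127, 135 and 107 CPM and Irf5 from 16.8, 17.9 and 18.2 to 43.4, 50.1 and 41.9 CPM. Irf7 and Stat2, which act after the interferon receptor, rose by 0.70 and 0.65, and Irf9 by 0.42 (adjusted p = 0.0598 without the pairing by limma). All 4 interferon receptor genes rose, from 0.35 for Ifnar1 to 0.71 for Ifngr2. The inhibitor gene Socs1 rose from 2.04, 1.51 and 0.869 to 4.52, 3.25 and 3.41 CPM, and Socs3 fell by 0.30, a call that was lost without the pairing (adjusted p = 0.142 by limma). Irf3 and Jak1 had differences of -0.03 and 0.06. Mx2, annotated in this build as a polymorphic pseudogene, had the largest change of the stimulated genes, from 1.8, 3.55 and 4.71 to 21.2, 21.6 and 21.1 CPM. Rsad2, the gene of the antiviral enzyme viperin, went from 27.8, 29.6 and 42 to 127, 131 and 112 CPM, and Cmpk2, which lies beside it, from 9.09, 12.4 and 15.1 to 43.9, 48.7 and 44.1 CPM. Ifit1, which binds foreign RNA, went from 35.5, 45.5 and 57.6 to 116, 138 and 119.8 CPM, and the immunity-related GTPase gene Iigp1 from 27.3, 36.1 and 44 to 102, 108 and 91.4 CPM. Each of these TNF groups lay wholly above its controls. Parp14, an ADP-ribosyltransferase, rose by 1.74 on the log2 scale, and Isg15, a ubiquitin-like modifier, from a mean of 30.5 ± 6.3 to 61.4 ± 7.02 CPM (SD, n = 3). The exception was Ifi27, at 90.1, 111 and 107 CPM without and 98.3, 104 and 118 CPM with TNF (log2 difference 0.06, adjusted p = 0.346 by limma).

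The untreated cultures differed from each other in these same genes. Of the 38 interferon-stimulated genes, 35 (92.1%) were highest in control 3 among the controls, against 40.5% of all tested genes, and 34 (89.5%) were lowest in control 1, against 30.9%. The median range over the 3 controls was 0.54 on the log2 scale, against 0.16 over all tested genes. Rtp4, for example, stood at 21.7, 29.3 and 50.2 CPM in the controls, so that the control of pair 3 held more than 2 times the level of the control of pair 1. With TNF, Rtp4 reached 77.6, 95.6 and 96.5 CPM, and the median range over the TNF libraries was 0.28. TNF 3 was the highest TNF library for 23 of the 38 genes (60.5%, against 38.6% of all tested genes), and the library medians relative to the control mean were -0.25, -0.03 and 0.30 in the controls and 0.61, 0.74 and 1.01 with TNF. The change within a pair was smallest in pair 3 for 28 of the 38 genes (73.7%), against 34.6% of all tested genes and 50.3% of the 1337 genes called higher, and the median pair changes were 0.87, 0.76 and 0.63. A high control value lowers the change of its own pair by construction, so the order of the changes is not independent of the order of the controls. The cell cycle genes had a median range over the controls of 0.07. The pattern was not particular to the 38 genes. Of the 9 tested guanylate-binding genes, 7 were highest in control 3, 7 were lowest in control 1 and 8 changed least in pair 3. Their median range over the controls was 0.46. Pair 3 was also the shallowest, and the part of depth in this pattern was not tested. Without pair 3, or without either of the other pairs, 37 of the 38 genes passed as higher.

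**Figure D3:**
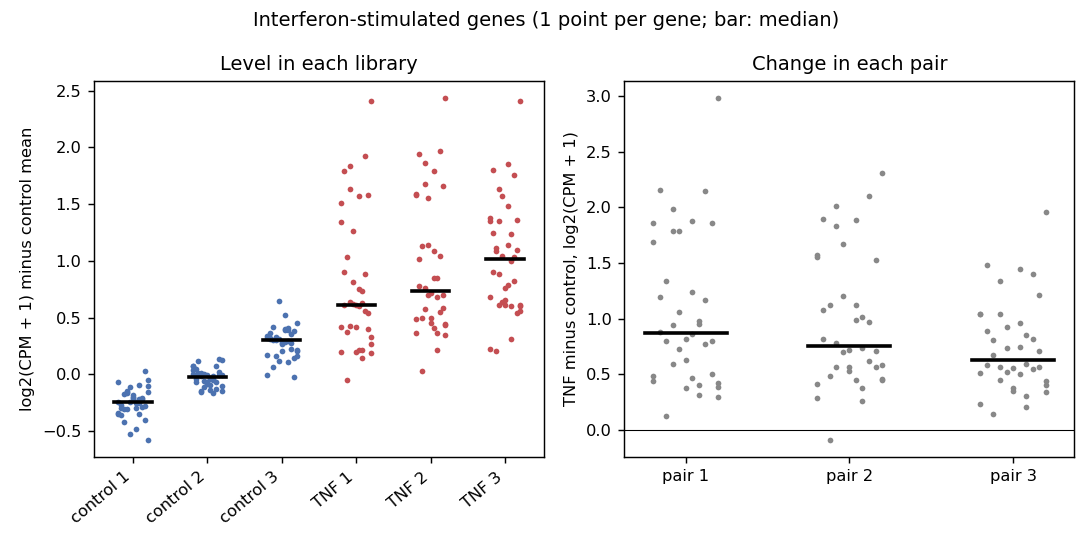
The 38 tested interferon-stimulated genes, as level in each library relative to the gene's control mean (left, log2(CPM + 1)) and as TNF minus control within each pair (right, same scale). Bars are medians; the control medians are -0.25, -0.03 and 0.30, the TNF medians 0.61, 0.74 and 1.01, and the pair medians are 0.87, 0.76 and 0.63.

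All 9 tested guanylate-binding proteins, interferon-inducible GTPases that attack pathogen vacuoles, rose (8 without the pairing), with a median of 1.58. Gbp5 went from 1.93, 1.62 and 2.52 to 18.8, 22.8 and 14.6 CPM, and Gbp2, the most abundant of them with TNF, from 19.8, 21.5 and 25.5 to 86.4, 95.5 and 70.7 CPM. Gbp6 rose from 5.61, 8.13 and 9.38 to 33.1, 35.1 and 31.1 CPM and Gbp10 from 0.757, 1.25 and 1.05 to 5.08, 6.18 and 5.18 CPM, and these genes have near-identical copies, so that reads may be split between them. Gbp8 changed least (0.62, adjusted p = 0.0757 without the pairing by limma). Of 23 genes of antigen processing 15 rose and 0 fell (11 and 0 without the pairing), by smaller amounts and with a median of 0.25. The counts of both lists stand beside 11.5% higher and 8.8% lower among all tested genes. The immunoproteasome subunit gene Psmb10 rose from 21.4, 23.5 and 21.8 to 43.3, 48.8 and 36.4 CPM, whereas its partners Psmb8 and Psmb9 rose by 0.25 and 0.27 on the log2 scale (for Psmb9, adjusted p = 0.0973 without the pairing by limma). The peptide-loading genes Tapbpl, Tapbp and Tap2 rose by 0.78, 0.50 and 0.49. The class I heavy chain genes H2-K1 and H2-D1, which share sequence with close relatives, rose by 0.25 and 0.21, and the related H2-T23 by 0.65. H2-K1 stood at 862, 855 and 863 CPM in the controls and 1027, 1043 and 999.9 CPM with TNF. Their light chain gene B2m had a difference of 0.05 and the class I transactivator gene Nlrc5 one of 0.05, and neither passed. The class II genes H2-Aa, H2-Ab1 and Cd74 had differences of 0.12, 0.12 and 0.10.

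Several sensors of microbes rose. Tlr2, the receptor for bacterial lipopeptides, went from 2.77, 2.5 and 1.88 to 11.5, 15.5 and 8.79 CPM, and Nod2, which senses muramyl dipeptide, from 0.679, 0.995 and 0.457 to 4.62, 3.66 and 2.41 CPM. Nod2 was below 1 CPM in every control, so it met the minimum mean of 1 CPM only through its TNF libraries. Ripk2, the kinase that acts after Nod1 and Nod2, rose from 31.2, 30.3 and 30.6 to 68.6, 72.2 and 62.6 CPM, Nod1 by 0.58, the RNA sensor gene Tlr3 by 0.63 and the adaptor gene Myd88 by 0.51. Tlr4, the receptor for lipopolysaccharide, had a difference of -0.11 and Tlr5, the receptor for flagellin, one of -0.23. Irak2 fell by 0.27 in the paired fit (adjusted p = 0.0789 without the pairing by limma), so that 9 of 19 sensors and adaptors rose and 1 fell (8 and 0 without the pairing). Pglyrp2, a peptidoglycan amidase gene outside these lists, was barely detected in the controls at 0.313, 0.199 and 0.0457 CPM and stood at 4.47, 5.34 and 2.97 CPM with TNF. Its control 3 value stands for about 1 read, so no fold is given. Pglyrp2, too, met the minimum mean of 1 CPM only through its TNF libraries. Neurl3, a ubiquitin ligase gene, was also among the largest rises, from 3.81, 2.9 and 4.85 to 25.7, 26.5 and 21 CPM. Of 8 complement and acute phase genes 5 rose and 0 fell (4 and 0 without the pairing), among them a serum amyloid, a pentraxin and C3. Saa3, an acute phase reactant, went from 3.81, 4.72 and 5.03 to 14.3, 17.1 and 9.15 CPM, the pattern recognition gene Ptx3 from 18.1, 17.3 and 24.5 to 37.6, 44.9 and 48.7 CPM and C3, the central complement protein, from 63.5, 68.8 and 59.7 to 101, 103 and 82.3 CPM. Of the inflammatory enzymes 3 of 5 rose and 1 fell (1 and 0 without the pairing). The list counts of this paragraph stand beside 11.5% higher and 8.8% lower among all tested genes. Sod2, the mitochondrial superoxide dismutase, rose by 0.65. Ptgs2, the inducible cyclooxygenase, was highest in the cultures numbered 3 in both groups (133, 132 and 203 CPM in the controls, 180.1, 160.1 and 246 CPM with TNF), and its rise of 0.33 lost the call without the pairing (adjusted p = 0.338 by limma).

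Some immediate early genes rose and others did not pass. Junb went from 112, 114 and 82.3 to 312, 289 and 246 CPM, the largest change of the list, and Fosl1 from 99.8, 93.8 and 110.2 to 174, 171 and 189 CPM. Both encode parts of AP-1. The groups were far apart in both. Jun, Fos and Fosb had differences of 0.03, -0.08 and -0.05 and did not pass. Egr1, Myc, Atf3, Maff and Ier3 rose by 0.71, 0.67, 0.66, 0.66 and 0.62 on the log2 scale, and Zfp36, which destabilises inflammatory mRNAs, by 0.75. Klf4, an epithelial differentiation factor, fell from 130.1, 136 and 123 to 112, 106 and 109.5 CPM. In all 15 of 24 rose and 2 fell (12 and 1 without the pairing). Genes of cell death and survival went both ways, 10 of 23 higher and 2 lower (6 and 1 without the pairing; 6 higher without pair 1). The shares among all tested genes were 11.5% higher and 8.8% lower. Bid, which links death receptors to mitochondria, rose from 10.3, 11.5 and 13.4 to 24.2, 28.2 and 24.8 CPM, and Casp4, the sensor of cytosolic lipopolysaccharide, from 29.3, 30.6 and 27.4 to 60.5, 59.6 and 52 CPM. Gsdmd, the pore protein that inflammatory caspases cleave, rose by 0.51 and Gadd45b by 0.52. Bmf, a pro-apoptotic BH3-only gene, fell from 5.51, 4.89 and 4.35 to 2.22, 3.12 and 2.57 CPM. Mcl1 and Bcl2l1 had differences of 0.05 and -0.03. Among matrix proteases and their inhibitors 6 of 18 rose and 4 fell, beside the same 11.5% and 8.8% (2 and 1 without the pairing; 2 lower without pair 1). Mmp10, a stromelysin gene, rose from 2.61, 2.98 and 0.823 to 7.36, 7.43 and 1.81 CPM in the paired fit, with overlapping groups and no call without the pairing (adjusted p = 0.212 by limma). Its relative Mmp3 was alike in this: it stood at 6.27, 7.39 and 1.51 CPM in the controls and 10.7, 12.5 and 2.93 CPM with TNF, with pair changes of 0.68, 0.69 and 0.65 although the groups overlapped (adjusted p = 6.34e-08 paired and 0.52 without the pairing, by limma). The cultures numbered 3 were the lowest of both groups.

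The largest falls were smaller than the largest rises. Gas1 (chromosome 13, 60174405 to 60177365, minus strand), a membrane protein that binds hedgehog ligands, went from 148, 170.1 and 89.7 to 79, 86.6 and 51.8 CPM and fell by 0.89, 0.97 and 0.78 on the log2 scale in the pairs (adjusted p = 3.55e-53 paired and 0.0396 without the pairing, by limma). Its lowest control was just above its highest TNF library. Dhrs3 (chromosome 4, 144892827 to 144928209, plus strand), which returns retinaldehyde to retinol, went from 65.4, 75.5 and 38.2 to 37.8, 41.3 and 24.1 CPM. Each pair fell (0.77, 0.85 and 0.64), but the groups overlapped, with the cultures numbered 3 low in both, and the call was lost without the pairing (adjusted p = 0.0918 by limma). Ephb3 (chromosome 16, 21204755 to 21223305, plus strand), a receptor for ephrins, fell from 37.3, 41.8 and 33.7 to 21.3, 23.1 and 21.5 CPM, and Atoh8, a basic helix-loop-helix factor, from 84.5, 92.7 and 65.2 to 51.9, 48.8 and 50.1 CPM. Their groups did not overlap. Fam46c, a poly(A) polymerase gene, fell from 11.9, 13.5 and 9.65 to 7.41, 7.02 and 6.02 CPM. The semaphorin gene Sema6d, the planar polarity gene Prickle1 and Rab3a, a GTPase of exocytosis, fell by 0.72, 0.69 and 0.68 from control means of 4.78 ± 1.12, 5.32 ± 0.728 and 5.99 ± 0.533 CPM (SD, n = 3). Phyhip and Ankrd35 fell by 0.65 and 0.63, and Phyhip lost its call without the pairing (adjusted p = 0.0895 by limma).

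The TGFB and BMP pathway is the one that the other ligands of the study address. Of its 22 tested components 3 rose and 5 fell, beside 11.5% higher and 8.8% lower among all tested genes (2 and 1 without the pairing; 2 or 3 lower without pair 1 or 2). Smad3, which transmits TGFB signals, rose from 97.9, 103 and 87.6 to 129.6, 143 and 128 CPM and the ligand gene Tgfb1 by 0.39. Tgfb3 fell from 76.9, 78.2 and 63.6 to 58.7, 58.9 and 49.9 CPM, and Smad9, which transmits BMP signals, fell by 0.55 (adjusted p = 0.0538 without the pairing by limma). Of 20 target genes 5 rose and 7 fell (4 and 5 without the pairing). The genes that rose included Tgif1, a repressor, from 33.5, 31.8 and 33.6 to 45.2, 45.4 and 48 CPM (log2 change 0.48). Those that fell included Id2 (from 38.9, 41.9 and 42.9 to 25.3, 25.2 and 28.8 CPM), Id1 (fell by 0.34), Bambi, a decoy receptor (fell by 0.45, with overlapping groups and a limma adjusted p of 0.219 without the pairing), and Smad6, an inhibitor of BMP signalling (fell by 0.37). Pmepa1 and Smad7, feedback genes of TGFB signalling, had differences of 0.03 and 0.01.

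Of 9 tested Notch pathway genes 2 rose and 4 fell (2 and 3 without the pairing). The counts of this paragraph stand beside 11.5% higher and 8.8% lower among all tested genes. The receptor gene Notch1 fell from 86, 90.8 and 72.5 to 60.9, 61.3 and 65 CPM and its target Hes1 by 0.32, while the ligand gene Jag1 rose from 53.2, 51.3 and 55.3 to 73, 68.6 and 70.5 CPM and Notch2 by 0.28. Of 15 Eph receptor and ephrin genes 1 rose and 6 fell, but without the pairing 0 and 1, and without pair 1 or pair 2 the falls numbered 3. Ephb3, given above, was the only one called in both fits. Lrig1, which restrains EGF receptor family signalling, rose from 42.5, 41.2 and 45.2 to 71.4, 68.4 and 66.7 CPM and was the only called gene of 6 in the stem cell and Wnt list, in which Axin2, Ccnd1 and Lgr4 had differences of 0.05, 0.03 and -0.19. Lgr5 was not listed. Of the 25 cell cycle genes 0 rose and 1 (Bub1, fell by 0.13) passed as lower in the paired fit, and 0 passed without the pairing. Their log2 differences ran from -0.13 to 0.06. Mki67, for example, stood at 461, 467 and 478 CPM in the controls and 458, 471 and 470.4 CPM with TNF. Among the cell type markers, 0 of 5 epithelial genes passed, 5 of 17 mesenchymal genes rose (2 without the pairing), of which Pdgfra changed most (2.25, 2.87 and 2.15 to 4.6, 3.93 and 3.53 CPM), and the leukocyte gene Cd68 fell by 0.17 in the paired fit alone. In bulk samples a change in the share of a cell type and a change of RNA per cell cannot be told apart.

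**Figure D4:**
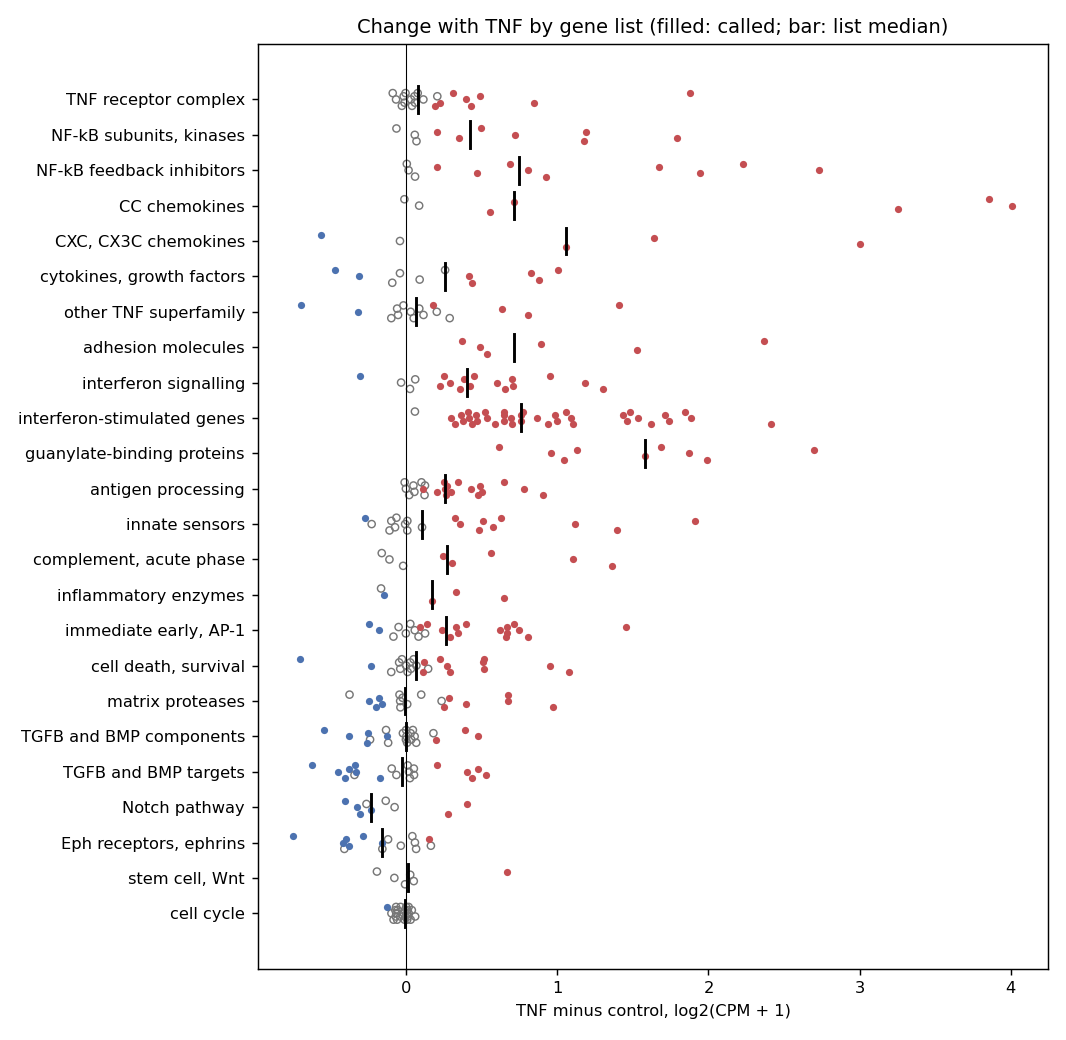
Change with TNF (log2(CPM + 1), TNF minus control) of every tested member of 24 gene lists in colonocytes. Filled points passed the paired test (red higher, blue lower), open points did not, and bars are list medians, which run from -0.23 for the Notch pathway to 1.58 for the guanylate-binding proteins.

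The largest rises of the colonocytes were smaller in the colonoids on the log2(CPM + 1) scale. Only differences within each table were used, in 1 limma fit of 12 libraries with the pair or line as a block, over 10337 genes tested in both tables, and 636 genes differed (6.15%), 338 with a higher value in colonocytes (3.27%) and 298 with a lower one (2.88%). Without the replicate block 67 genes differed (50 and 17). The named genes had been chosen by their change in colonocytes, which favours a larger value there. The cells also differed in cell type markers. Cdh1 stood at 1345, 1268 and 1242 CPM in vehicle colonoids, against 0.966, 1.42 and 1.05 CPM in untreated colonocytes. Fn1 stood at 75.9, 29.2 and 20.9 CPM, against 4580, 4569 and 4874 CPM. This difference and whatever else separated the 2 experiments cannot be told apart from the culture system. The colonocyte dose and time are not given. Of the 9 largest rises present in both tables all 9 differed, and of the 8 largest falls 6 did; without the block 6 of these 15 passed (Cxcl10, Nfkbie, Neurl3, Nfkbia, Tlr2 and Rab3a). Ccl20 in colonoids went from 3.07, 3.9 and 1.11 to 24, 36.6 and 8.57 CPM in the lines 42, 43 and 46. All 3 lines were higher with TNF, by 2.62, 2.94 and 2.18 on the log2 scale, and the mean of 2.58 was 1.43 below that of the colonocytes (SE 0.16, adjusted p = 6.42e-05 by limma, and 0.662 without the block). Ccl2 was low in colonoids, at 0.692, 1.76 and 0.377 CPM with vehicle and 4.89, 9.61 and 2.82 CPM with TNF. With vehicle, Cxcl10 (1.04, 0.725 and 1.28 CPM) and Gbp6 (0.713, 1.35 and 0.867 CPM) were low there too. At such levels log2(CPM + 1) understates a change, so part of these differences from colonocytes can come from the scale. Cxcl10 changed by 0.84, 1.27 and 0.37 in the lines, 2.17 less than in colonocytes. The inhibitor genes Nfkbia and Tnfaip3 differed less, with mean changes of 1.46 and 1.56 in colonoids against 2.23 and 1.95, whereas Nfkbie changed by 0.81 against 2.73. Icam1 changed by 1.53 in colonoids and 1.53 in colonocytes, a difference of 0.00 that was not called (SE 0.14, adjusted p = 0.997 by limma).

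Many interferon-stimulated genes changed more in colonocytes. Of the 30 tested in both, 19 had a higher value in colonocytes and 0 a lower one, beside the 3.27% and 2.88% of all genes, with medians of 0.67 in colonocytes and 0.17 in colonoids, and 4 differed without the block. Rsad2 changed by 0.19 in colonoids (from 1.17, 0.706 and 1.55 to 1.5, 0.98 and 1.84 CPM) against 1.88, and Ifit1 by 0.07 against 1.43. Several falls of the colonocytes had no counterpart in size. Ephb3 stood at 145, 103 and 119 CPM in colonoids with vehicle and 119.9, 108 and 121 CPM with TNF, a mean change of -0.06. Atoh8 was higher with TNF in all 3 lines (0.35, 0.69 and 0.36). It was low there, at 3.35, 2.78 and 1.41 CPM with vehicle and 4.56, 5.11 and 2.09 CPM with TNF. Both differences lost the call without the block (limma adjusted p = 0.104 for Ephb3 and 0.363 for Atoh8). A pair of list members, picked out after their values were seen, had larger changes in colonoids. C3 went from 3.07, 6.19 and 2.39 to 23, 83.3 and 21.4 CPM there (mean log2 change 2.94, against 0.56 in colonocytes, adjusted p of the difference = 1.92e-06 by limma and 0.139 without the block). Cd74, the class II invariant chain gene, went from 2.66, 5.88 and 2.05 to 15.6, 31.6 and 12.8 CPM (mean log2 change 2.20, against 0.10, adjusted p = 4.68e-09 by limma and 0.145 without the block).

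**Figure D5:**
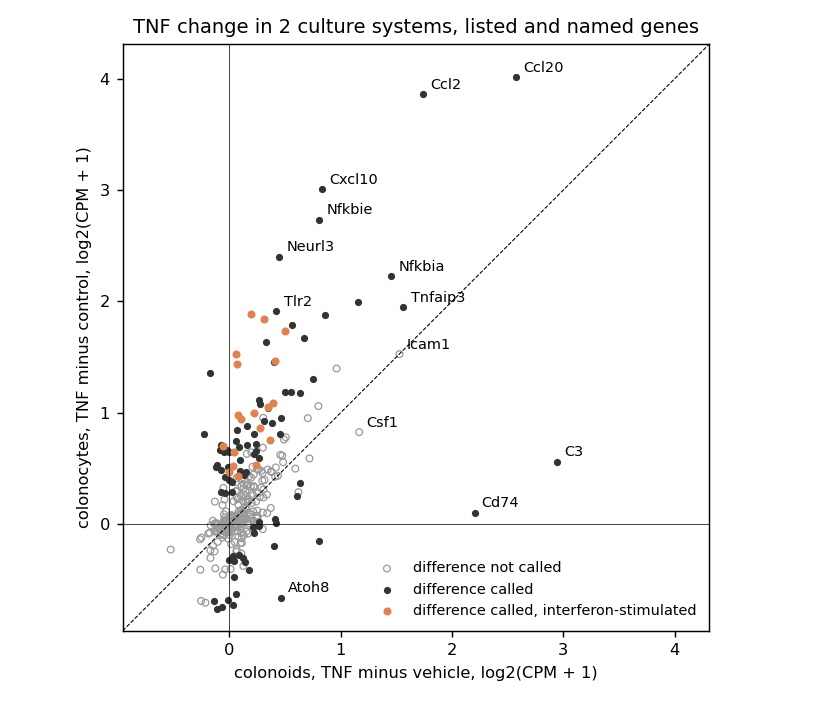
Log2(CPM + 1) change with TNF in colonoids (horizontal) and colonocytes (vertical) for the 326 listed or named genes tested in both tables; the dashed line marks equal change. Filled points are the 104 genes whose difference was called, with interferon-stimulated genes in orange; 77 filled points lie above the line and 27 below, and C3 and Cd74 lie far below it.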

How the data were processed

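The authors deposited 7 tables, each of 1 comparison, and 2 were used here. The deposited values are a signal in CPM, which the authors scaled within each table; over listed genes they summed to 986859 to 1015324 in the colonocyte libraries. Their own log2 fold changes and p-values were not used. The submitters' processing notes name mm10 and, in no stated order, edgeR 3.4.2, HTSeq 0.5.4p5, TopHat2 2.1.0, bcl2fastq 2.16, CASAVA and SAMtools 1.3.1. The sources used here do not give the strand setting or the expression filter, so overlapping and near-identical genes are uncertain.

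Values were spaced in whole steps (100% within 0.05 of one), which gave depths of 21.6 to 39.5 M reads in colonocytes and 42.2 to 61.7 M in colonoids. Replicates differed by more than counting noise (chi-square per gene at least 4.29). Values were tested as log2(CPM + 1), for genes with a mean of at least 1 CPM, with limma 3.58.1 in R 4.3.3 (eBayes, mean-variance trend, two-sided, Benjamini-Hochberg over all genes, 0.05). The mean was taken over both groups, so a gene low in the controls could pass through its TNF libraries. Log2 changes are on the log2(CPM + 1) scale and understate those of low genes, whereas folds and multiples were taken from CPM with no pseudocount. The culture number was a block, and the pairing was set by the rule that defines the comparison. Deviations from the group mean correlated at r = 0.27, 0.27 and 0.52 for same-numbered libraries, against -0.38 to 0.22 for different numbers. All the negative values involved culture 3. Between cultures 1 and 2 the values for different numbers were 0.17 and 0.22, so the correlations mainly set culture 3 apart. Tested on simulated data for this comparison (11586 genes), the fit recovered 94% of changes of 1 and 100% of changes of 2 on the log2 scale, with 7 false calls. In the comparison with colonoids (10337 genes), 98.9% and 100% were recovered, of 90 and 91 changed genes, with 18 false calls. The simulated noise was normal, independent between genes and drawn around the same block model that was then fitted. These false calls therefore do not measure the false calls in the real data.

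The members and the 28 gene lists were chosen with earlier results of these data known. Named genes are the 14 largest rises and 12 largest falls among called genes with 3 concordant pairs, Ccl20 and Smad4, and up to 5 called members of each list plus members with an explained role. Positions are from GENCODE vM21 and promoter sequences from RefSeq (GRCm38.p6; 8814 tested genes matched by symbol and 491 by older symbol). Figures used Python 3.11.15 and matplotlib 3.10.9.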

Additional observations from a re-analysis of the deposited data

Results flagged for a closer look

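The change with TNF differed between colonocytes and colonoids for 15 of the named genes, by the test of the difference itself (colonocyte minus colonoid, log2 scale, limma with Benjamini-Hochberg adjustment). For the rises, the difference was 1.43 for Ccl20, 2.12 for Ccl2, 2.17 for Cxcl10, 1.92 for Nfkbie, 1.95 for Neurl3, 0.77 for Nfkbia, 0.84 for Gbp6, 0.38 for Tnfaip3 and 1.49 for Tlr2. For the falls, it was -0.65 for Dhrs3, -0.68 for Ephb3, -0.75 for Sema6d, -0.56 for Fam46c, -0.67 for Rab3a and -1.13 for Atoh8. The adjusted p ran from 3.44e-08 for Ccl2 to 0.0466 for Tnfaip3 by limma. These genes were chosen by their change in colonocytes. The culture system cannot be told apart from the difference in cell type markers or from whatever else separated the 2 experiments. Ccl2, Cxcl10 and Gbp6 were near 1 CPM in colonoids with vehicle, where log2(CPM + 1) understates a change. Without the replicate block 9 of the 15 lost the call, Ccl20 (adjusted p = 0.662 by limma) and Ccl2 (0.0518) among them.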

How the results depend on the processing

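Counts of called genes in the TNF comparison were 2356 in all, 1337 higher and 1019 lower. With no replicate block they were 728, 534 and 194. With no mean-variance trend they were 984, 621 and 363, and with robust moderation 2398 in all; both of these were chosen after seeing the data. Scaling to the total of listed values moved the median change of all genes by less than 0.1 and gave 1615 lower. Leaving out 1 pair gave 1314 to 2785 calls (852 to 1542 higher, 433 to 1243 lower). Leaving out 1 library with no replicate block gave 400 to 1217 (350 to 787 higher, 50 to 430 lower), the highest without control 3. Pseudocounts of 0.1 and 5, no filter, a mean of at least 5 CPM and median-ratio scaling gave 2201 to 2381 in all. The comparison with colonoids gave 636 (338 and 298), and with no replicate block 67 (50 and 17). Leaving out 1 pair or line gave 290 to 1525 (169 to 816 higher, 121 to 709 lower): 1525 without line 43, 309 without line 46, and 290 and 314 without pairs 1 and 2.

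Of the single genes followed, 66 lost their call with no replicate block and 47 with no mean-variance trend. Jund, called higher by 0.14, ran from -0.052 (without control 3) to 0.25 (without TNF 3) when 1 library was left out with no replicate block; the cause was not tested. In a window of 100 bases, 2.18% of tested genes held the NF-kB consensus, 1.17% the ISRE core and 2.07% the AP-1 motif, as a shorter window must. The planned edgeR and DESeq2 fits were not run: values lay on whole-read steps, but the smallest value of most libraries was not 1 read, so counts were not taken as recovered. Depth was lowest in the pair numbered 3 (21.6 and 25.2 M reads), where 3 reads stand for 0.137 and 0.12 CPM, so lower values rest on fewer than 3 reads there.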
